A study of Castanea mollissima with 18 samples.

Results

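The 100 genes described here held the most even transcript level of the well-expressed genes in tissue cultures of Chinese chestnut (Castanea mollissima). RNA sequencing was run on 12 libraries labelled somatic embryo and 6 labelled callus. The values are FPKM, fragments per gene scaled to the length of its model and to the total mapped in the library. The labels give a tissue and a number for each library, and state no genotype, line, age, medium, treatment or stage. The sample titles also hold short codes that the labels do not explain. The code se or c goes with the tissue label, and the other codes are the same in all 18 libraries. Candidates were the 4114 of 33991 gene IDs with a mean of at least 50 FPKM over the 18 libraries and at least 1 FPKM in all 18. They were ranked by the standard deviation (SD) of log2(FPKM + 1) over the 18 libraries, and the 100 with the lowest SD, 2.43% of the candidates, were taken. Because these values chose the genes, their evenness is a description and no test is attached to it.

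Callus is unorganised tissue that plant cells make when they divide in culture. Somatic embryos grow from such body cells, without fertilisation, and pass through the shapes of a seed embryo. When callus gives rise to embryos, many genes of development and storage change, whereas genes for tasks that every cell performs, such as protein turnover, RNA processing and membrane traffic, tend to keep their level. Genes with a steady level are sought as references, against which other genes are measured by quantitative PCR. The table does not pair its IDs with names, so no role is given to any of the 100, the tissue labels could not be checked against marker genes, and no sequence is shown.

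Some libraries stood apart. Spearman's correlation across tested genes was at least 0.996 among callus 1, 2 and 6 and at least 0.994 among callus 3, 4 and 5, but at most 0.920 between these sets. Somatic embryo 5, 6 and 7 had at least 0.994 with each other. Somatic embryo 1 and 12 had 0.988, somatic embryo 2 and 11 had 0.987, and somatic embryo 8, 9 and 10 had 0.964 to 0.987. All other pairs of embryo libraries had at most 0.952. The labels do not say whether close libraries come from the same culture, so an SD over libraries may be partly technical. Somatic embryo 4 had the highest summed FPKM, 1067585, where the others ranged from 950919 to 1020623. Read depth is unknown, since the values are FPKM without counts.

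The 100 genes changed little in absolute terms. Every one of them had a highest library less than 1.70 times its lowest, with a median of 1.47 and a smallest ratio of 1.304. Over all candidates the median ratio was 2.91. A ratio under 2 was also found in 19.5% of the candidates, 803 genes, so the 100 were the lower end of a continuous range and not a separate class. Their SD ran from 0.102 to 0.179 with a median of 0.158 (log2), against a median of 0.452 over the candidates. At the border of the choice, Cm06G01475.gene (SD 0.1786) and Cm07G00447.gene (0.1794) were the last inside, and Cm12G00354.gene (0.1795) and Cm07G01789.gene (0.1800) were the first outside.

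**Figure D1:**
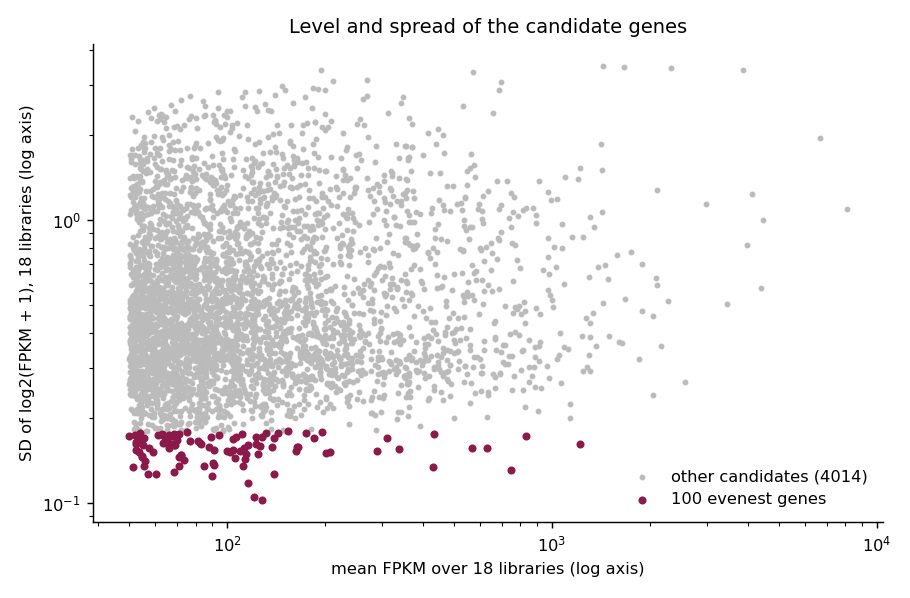
Mean FPKM over 18 libraries (x axis, log scale) and SD of log2(FPKM + 1) over the same libraries (y axis, log scale) for the 4114 candidate genes, each point a gene. The 100 evenest genes form the lower edge of the cloud, with SD up to 0.179, and lie at low as well as high mean FPKM.

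Cm07G01396.gene was the evenest of all. Its FPKM ran from 112 in somatic embryo 7 to 146 in somatic embryo 12 with a median of 126, and from 117 to 130 with a median of 125 in callus. All 6 callus values lay within the range of the embryos. The means were 129 ± 10.8 FPKM (SD, n = 12) and 125 ± 4.72 FPKM (SD, n = 6), which lay closer together than the SD of either tissue.

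Cm03G01288.gene, at the next place, ran from 100.9 to 134 FPKM in somatic embryo (median 120) and from 120 to 126 FPKM in callus (median 123). Its lowest embryo value was in somatic embryo 1, and its highest values, 132 to 134 FPKM, were in somatic embryo 5, 6 and 7. Somatic embryo 1 was among the highest libraries in Cm07G01396.gene, at 143 FPKM.

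Cm07G00016.gene ran from 92.9 FPKM in somatic embryo 4 to 127 FPKM in somatic embryo 1 (median 113), and from 113 to 133 FPKM in callus (median 119). Cm02G02509.gene had 78.3 to 108 FPKM in somatic embryo (median 85.4) and 91.7 to 96.3 FPKM in callus (median 94.5). Its callus values had an SD of 1.67 FPKM (n = 6), against 8.76 FPKM (n = 12) in the embryos. Cm01G01843.gene had 50.3 to 68.6 FPKM in somatic embryo (median 54.7) and 51.7 to 62.3 FPKM in callus (median 59.3). In each of these 5 genes the tissues overlapped, and in 3 of them a single library, somatic embryo 1 or 12, gave the highest value of all 18.

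**Figure D2:**
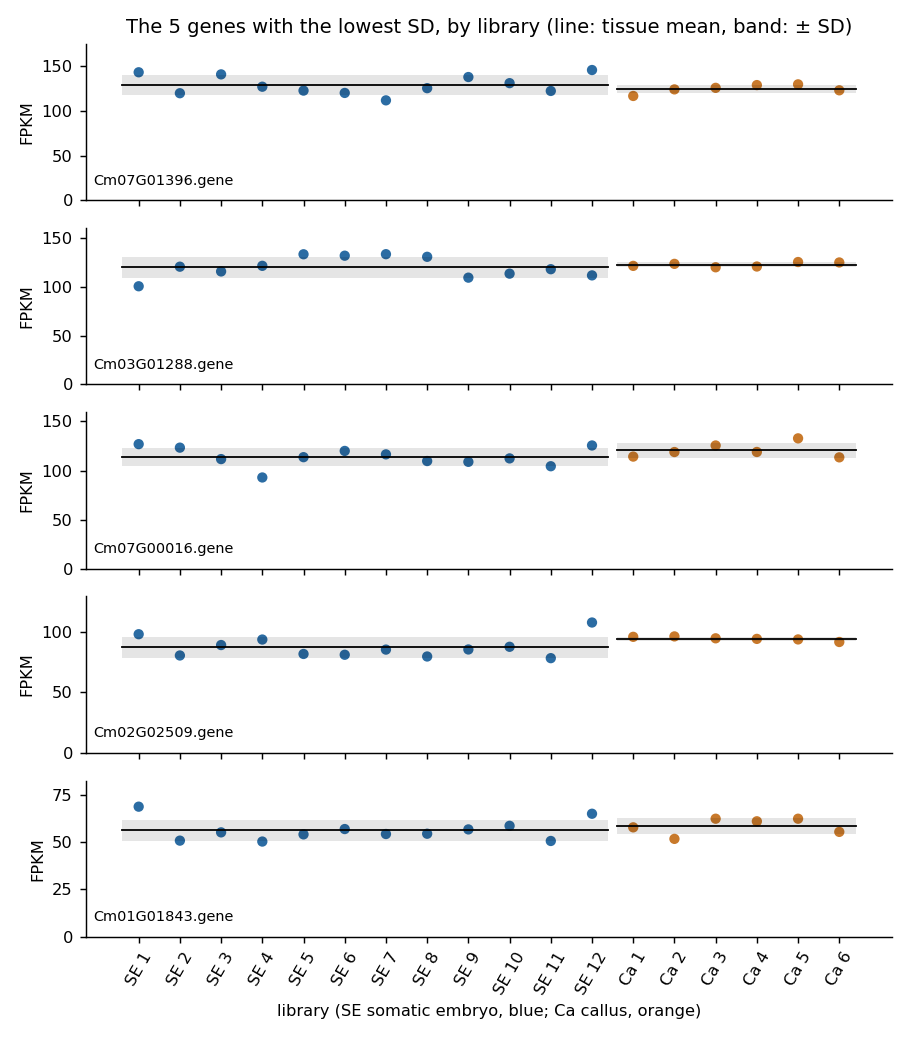
FPKM of the 5 genes with the lowest SD (y axes, from 0) in each of the 18 libraries (x axis), with 12 somatic embryo libraries in blue and 6 callus libraries in orange. Lines are tissue means and bands are ± SD. The callus points overlap the embryo points in each gene, and in Cm07G00016.gene callus 5 lies above all embryos.

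The even genes covered a wide range of levels. Their mean FPKM over the 18 libraries had a median of 89.3, with quartiles at 66.1 and 128, near the candidates' median of 95.4. They made up 2.89% of the candidates at 50 to 75 FPKM, 1.95% at 75 to 100 FPKM, 2.94% at 100 to 200 FPKM, 1.17% at 200 to 500 FPKM and 1.95% at 500 FPKM or more. Across the 4114 candidates, mean FPKM and SD had a Spearman correlation of 0.068, which describes these genes in 18 shared libraries. Below the limit on the mean, 114 of 4533 genes at 20 to 50 FPKM (2.51%) had an SD at or under that of the last gene inside. With a limit of 20 FPKM on the mean, 49 of the 100 genes remained. A limit of 100 FPKM keeps, by its construction, the 44 of them with a mean at or above it.

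The most abundant even gene was Cm07G01579.gene. It had 933 to 1373 FPKM in somatic embryo (median 1275) and 1012 to 1310 FPKM in callus (median 1117). The low embryo value was somatic embryo 8, and the other 11 embryos had 1188 FPKM or more. Cm08G00176.gene followed with 656 to 927 FPKM in somatic embryo (median 799) and 762 to 1012 FPKM in callus (median 905). In this gene callus 3, 4 and 5 had 980 to 1012 FPKM and callus 1, 2 and 6 had 762 to 831 FPKM, so its callus SD of 112 FPKM (n = 6) came with the parting of the callus libraries.

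At the other end, Cm09G01130.gene had a mean of 50.007 FPKM over the 18 libraries and would have missed the limit with a slightly lower value. Its FPKM was 40.8 to 55.2 in somatic embryo (median 46.4) and 52.8 to 61.2 in callus (median 57.0). Cm06G00982.gene had 38.7 to 58.2 FPKM in somatic embryo (median 51.1) and 50.7 to 53.9 FPKM in callus (median 53.3).

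Within tissues, the even genes varied more among embryos than among calli. The median SD was 0.160 (log2) within somatic embryo and 0.079 within callus, a ratio of 2.03. Over the candidates the medians were 0.424 and 0.154, a ratio of 2.76. The SD was larger in somatic embryo in 82 of the 100 genes and in 90.1% of the candidates. Since the rule limits the SD over 12 embryos and 6 calli together, it bears mostly on the embryo spread, and nothing is read from the smaller ratio. The callus SD also rests on the parting of its libraries: without callus 1, 2 and 6 the median SD of somatic embryo exceeded that of callus by 0.121, and without callus 3, 4 and 5 by 0.114, against 0.081 with all.

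**Figure D3:**
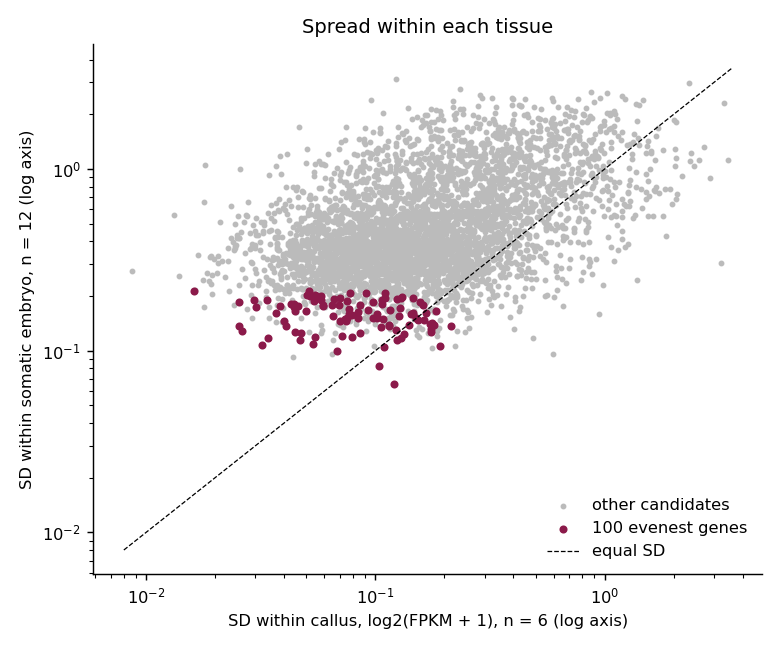
SD of log2(FPKM + 1) within callus (x axis, n = 6, log scale) and within somatic embryo (y axis, n = 12, log scale) for each candidate gene, with the 100 evenest genes in dark red and equal SD as a dashed line. Most points lie above the line, 82 of the 100 among them, and the 100 spread over a wide span of callus SD, from 0.016 to 0.214.

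Cm10G00755.gene and Cm01G03871.gene had the largest excess of embryo over callus SD. Cm10G00755.gene stood at 409 to 422 FPKM in all 6 callus libraries (median 418), an SD of 4.69 FPKM, whereas the embryos ran from 371 FPKM in somatic embryo 2 to 618 FPKM in somatic embryo 4 (median 427). Cm01G03871.gene had 101.4 to 112 FPKM in callus (median 110) and 87.3 to 140 FPKM in somatic embryo (median 115). The callus range of both genes lay inside the embryo range, as it did in 57 of the 100 genes and in 50.6% of the candidates.

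The reverse held in Cm03G00952.gene and Cm03G02452.gene. Cm03G00952.gene had 71.6 to 96.7 FPKM in somatic embryo (median 86.3) and 65.6 to 88.5 FPKM in callus (median 75.8), with log2 SD of 0.106 and 0.191. Cm03G02452.gene had 112 to 162 FPKM in somatic embryo (median 137) and 125 to 174 FPKM in callus (median 147), with log2 SD of 0.136 and 0.214.

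Between the tissues the even genes differed by at most 0.28 on the log2(FPKM + 1) scale. The median absolute difference was 0.119, against 0.425 over the candidates. On FPKM as deposited 66 genes had a lower mean in somatic embryo and 34 a higher one, with a median difference (somatic embryo minus callus) of -0.08. The candidates had the same median of -0.08, and all tested genes had -0.12. The difference between tissues made up a median of 14.2% of a gene's variance over the 18 libraries, and over 50% of it in 11 of the 100 genes against 24.5% of the candidates. In bulk RNA such as this, fewer cells of a type and less RNA per cell cannot be told apart.

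Cm09G01130.gene and Cm02G02836.gene had the lowest embryo levels relative to callus. Cm02G02836.gene had 55.2 to 75.7 FPKM in somatic embryo (median 64.8) and 75.2 to 81.9 FPKM in callus (median 79.4). The tissues overlapped only through somatic embryo 4, the highest embryo, and callus 1, the lowest callus. The next embryo had 71.3 FPKM. The difference was -0.28 in both genes, and after the scaling described below it was -0.13.

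Cm03G02450.gene and Cm03G00952.gene had the highest embryo levels relative to callus, with differences of 0.19 in both. Cm03G02450.gene had 109 to 158 FPKM in somatic embryo (median 125) and 102.1 to 121 FPKM in callus (median 112), which overlapped. The ID of this gene stands 2 numbers before that of Cm03G02452.gene, whose difference was -0.12. Besides this pair, Cm05G00679.gene and Cm05G00683.gene, chosen here after their IDs were seen, were the only others of the 100 within 5 ID numbers of each other. The 100 IDs fell in 12 of the 13 number series that the IDs open with, from 4 in series 12 to 18 in series 01. These were 1.29% and 2.60% of the candidates in those series, against 2.43% over all candidates. The largest share was 4.21%, in series 07, and series 00, with none of the 100, held 26 candidates.

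In a limma fit over 20365 genes, 13 of the 100 genes passed a Benjamini-Hochberg adjusted p of 0.05 at any fold, all 13 with a lower level in somatic embryo. Over all tested genes 46.3% passed at any fold, 18.5% higher and 27.9% lower, and over the candidates 45.6%. A fold change of at least 2 was passed by 21.9% of all tested genes and was out of reach of the 100 by their choice. In 6 of the 100 genes all embryos lay below all calli, where 18.7% of tested genes (6.35% higher, 12.3% lower) and 19.6% of candidates had no overlap. The number that passed was 2 without callus 1, 2 and 6 (Cm07G01343.gene and Cm12G02128.gene, named after their values were seen) and 6 without callus 3, 4 and 5, where 22.1% and 39.9% of all tested genes passed. The rule used these same values, so the counts are given beside the background and nothing is read from them.

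The direction of these small differences depended on how libraries were scaled. Median-of-ratios scaling divides each library by the median ratio of its genes to their geometric means over all libraries, here from 20531 genes above 0 in every library. The factors were 0.823 in somatic embryo 2 and 0.828 in somatic embryo 11, 0.939 to 1.07 in the other embryos, and 1.07 to 1.10 in callus. After this scaling 73 of the 100 genes had a higher mean in somatic embryo and 27 a lower one, and the median difference was 0.07. The median of all tested genes moved from -0.12 to 0.02, so the 100 genes shifted with the rest. The sign turned in 39 genes, each from lower to higher in somatic embryo. In the limma fit on scaled values 17 of the 100 genes passed, all 17 higher in somatic embryo, against 44.6% of all tested genes (23.2% higher, 21.4% lower). No gene of the 100 passed in both fits, and 70 passed in neither. After scaling 2 of the 100 genes had no overlap, Cm01G02691.gene and Cm01G04274.gene, named after their values were seen, both with all embryos above all calli, where 17.4% of tested genes had no overlap. Rescaling all libraries to the same sum (the TPM scale) left 34 higher and 66 lower, and quantile normalization 35 and 65.

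The spread of the 100 genes changed with median-of-ratios scaling. Their median SD went from 0.158 to 0.167, with a highest value of 0.264, against a median of 0.443 over the candidates. The SD rose in 62 of the 100 genes and in 48.9% of the candidates. It rose in 32 of the 34 that were higher in somatic embryo as deposited and in 30 of the 66 that were lower. The log2 factors had an SD of 0.124 over the 18 libraries, which limits how far scaling can raise an SD. Choosing low SDs before scaling also favours a rise. Both comparisons with the candidates are thus partly built in, and nothing is read from them. The choice was repeated on scaled values, with the limits on level applied to them as well, which gave 4072 candidates. Of the 100 genes, 53 were chosen again, 73 were among the first 200 and 90 among the first 500. Cm09G01130.gene, with a mean just above the limit as deposited, was no longer a candidate, although its SD fell from 0.172 to 0.122. The 47 that left had a median tissue difference of 0.03 as deposited, with 28 of them higher in somatic embryo. The 47 that came in had a median of -0.20, with 46 of them lower in somatic embryo. The 53 that stayed lay between, with a median of -0.12 and 47 lower.

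**Figure D4:**
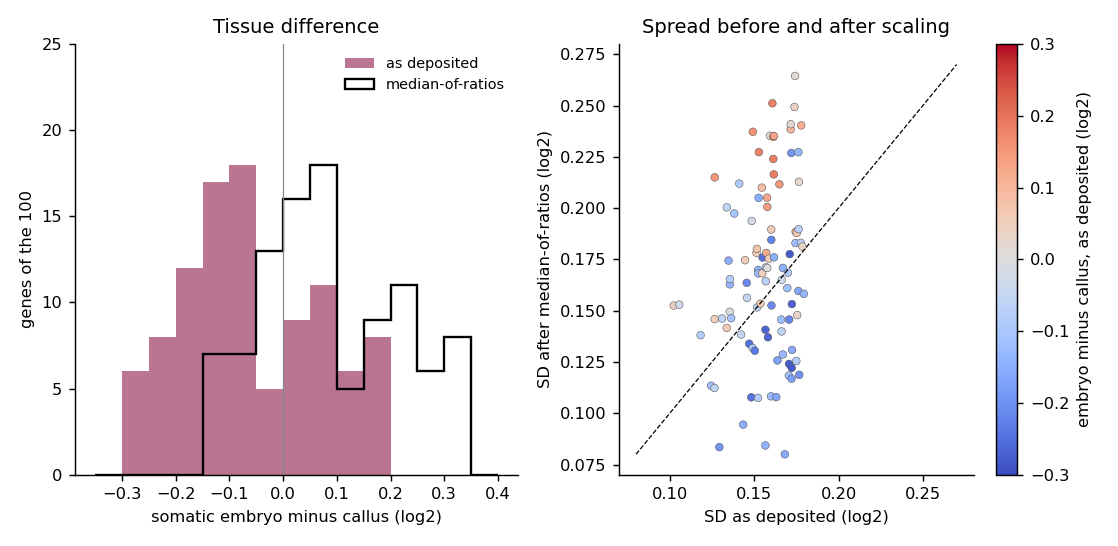
Left, number of the 100 genes (y axis) by tissue difference, somatic embryo minus callus in log2 (x axis), as deposited (filled) and after median-of-ratios scaling (outline), which moves the median from -0.08 to 0.07. Right, SD of log2 values as deposited (x axis) and after scaling (y axis) for the 100 genes, coloured by tissue difference as deposited, with equal SD as a dashed line. Of the 34 genes higher in somatic embryo as deposited, 32 lie above the line, and of the 66 lower ones 30.

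Single genes illustrate both outcomes. Cm01G00928.gene was at place 71 as deposited, with 77.8 to 117 FPKM in somatic embryo (median 105) and 110 to 115 FPKM in callus (median 111). Its lowest value was in somatic embryo 11, a library with a small factor. After scaling its SD fell from 0.168 to 0.080, and it became the evenest of all candidates. Cm08G00292.gene, with 59.4 to 73.3 FPKM in somatic embryo (median 65.1) and 69.9 to 78.2 FPKM in callus (median 76.0), went from an SD of 0.129 to 0.083 and to the place next to it.

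The SD of Cm06G01401.gene went the other way, from 0.174 to 0.264, and its place from 86 to 751. This gene had 47.3 to 80.3 FPKM in somatic embryo (median 60.5) and 54.0 to 67.6 FPKM in callus (median 59.99), and its highest value was in somatic embryo 2, the library with the smallest factor. Cm06G00874.gene, also highest in somatic embryo 2, had 102.01 to 143 FPKM in somatic embryo (median 121) and 98.8 to 120 FPKM in callus (median 104), and its SD went from 0.161 to 0.251. The evenest genes that scaling brought in were Cm06G00905.gene, from 0.183 to 0.105, and Cm04G02081.gene, also from 0.183 to 0.105. The 5 evenest genes as deposited stayed among the 100, at places 59, 63, 34, 12 and 11.

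Libraries differed in how far the even genes as a whole lay from their means. The median deviation of the 100 genes was lowest in somatic embryo 11, at -0.13 (log2), and in somatic embryo 2, at -0.09, and highest in somatic embryo 12, at 0.11. Callus libraries ranged from 0.01 to 0.09, with callus 3, 4 and 5 at 0.07 to 0.09 and callus 1, 2 and 6 at 0.01 to 0.04. The candidates' median deviation had the same sign in these embryo libraries, at -0.15 in somatic embryo 11, -0.14 in somatic embryo 2 and 0.10 in somatic embryo 12. It was highest in callus 5, at 0.12. In somatic embryo 4 the candidates lay at 0.11 and the 100 genes at -0.0007. After median-of-ratios scaling the 100 genes lay at 0.16 in somatic embryo 11 and 0.21 in somatic embryo 2. In these libraries the 100 genes lay below their means by less than the factor did, and scaling placed them above their means.

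**Figure D5:**
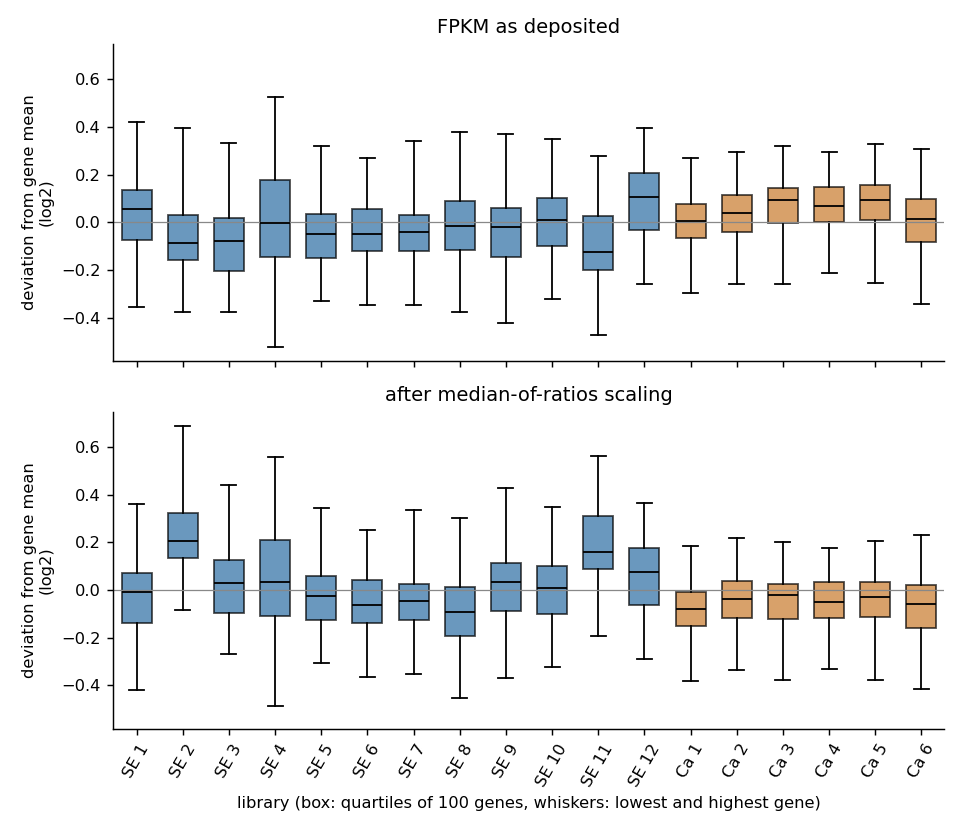
Deviation of each of the 100 genes from its own mean, in log2 (y axis), by library (x axis), as deposited (top) and after median-of-ratios scaling (bottom). Boxes are quartiles over the 100 genes, and whiskers reach the lowest and highest gene. Somatic embryo 2 and 11 lie low on top and high at the bottom, and somatic embryo 4 has the widest box on top.

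Somatic embryo 4 differed in another way. On FPKM as deposited its median deviation was close to 0, but the median absolute deviation of the 100 genes, 0.162, was the largest of the 18 libraries, and it held the highest or lowest value of 28 of the 100 genes. After median-of-ratios scaling somatic embryo 2, at 0.206, and somatic embryo 11, at 0.166, exceeded somatic embryo 4, at 0.154. Over the 18 libraries this absolute deviation, as deposited, was 0.109 ± 0.024 (SD, n = 18), with the smallest, 0.074, in callus 1. In callus every gene of the 100 lay within 25% of its mean over the 18 libraries, and 64 to 79 genes lay within 10%. In somatic embryo 93 to 100 genes lay within 25% and 43 to 73 within 10%, with the fewest in somatic embryo 11. The 100 genes together held 1.42% ± 0.061 (SD, n = 12) of the summed FPKM in somatic embryo and 1.48% ± 0.049 (SD, n = 6) in callus, ranges of 1.34% to 1.51% and 1.42% to 1.54% that overlapped. Without somatic embryo 4 the rule kept 73 of the 100 genes, and without somatic embryo 2 and 11 it kept 63.

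Between any pair of libraries, the median absolute difference over the 100 genes was 0.039 to 0.252 (log2) within somatic embryo, 0.040 to 0.141 within callus and 0.123 to 0.232 between the tissues. For the candidates the corresponding ranges were 0.063 to 0.685, 0.055 to 0.267 and 0.390 to 0.704. The even genes parted the callus libraries as well: the difference was at most 0.057 within callus 1, 2 and 6, at most 0.054 within callus 3, 4 and 5, and 0.105 to 0.141 across them.

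The 100 genes did not form a single pattern over the libraries. Pearson's correlation between members over the 18 libraries, which share the scale of each library, had a median of 0.12 over 4950 pairs and ran from -0.87 to 0.89. It was above 0.5 in 15.6% of the pairs and below -0.5 in 4.83%. A principal component analysis of the 100 genes put 25.9% of their variance on its first axis, where 80 of them had the same sign. Of the 20 with the opposite sign, 19 left the 100 after median-of-ratios scaling, against 28 of the 80.

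A ratio of genes does not depend on the scale of a library. The SD of the log2 ratio between 2 of the 100 genes had a median of 0.206, and in 70.3% of the pairs it was larger than the SD of the last gene inside. In 39 pairs it was smaller than the SD of the evenest single gene. A ratio carries the variation of both genes, so its SD and that of a single gene are not like measures. Cm06G00982.gene and Cm07G00729.gene had the steadiest ratio, with an SD of 0.072. Cm07G00729.gene had 72.8 to 100.9 FPKM in somatic embryo (median 89.3) and 89.6 to 101.96 FPKM in callus (median 94.1), and both genes had their lowest value in somatic embryo 9. Cm08G01615.gene and Cm07G00447.gene had the least steady ratio, with an SD of 0.340 and a correlation of -0.85. Cm08G01615.gene had 76.8 to 115 FPKM in somatic embryo (median 94.7) and 84.2 to 97.97 FPKM in callus (median 92.3), lowest in somatic embryo 10 and highest in somatic embryo 7. Cm07G00447.gene had 125 to 181 FPKM in somatic embryo (median 145) and 154 to 172 FPKM in callus (median 165), highest in somatic embryo 10 and lowest in somatic embryo 5. By its mean SD of ratios to the other 99 genes, Cm02G02509.gene was the steadiest of the 100, at 0.168 against a median of 0.204.

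With each library centred on the median of the 100 genes, the median SD of a gene was 0.145, against 0.158 without centring.

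Whether evenness in one tissue came with evenness in the other was described by choosing genes on one tissue and reading them in libraries that had no part in the ranking. The limits on level still used all 18 libraries. The 100 candidates with the lowest SD within the 12 embryos had a median SD of 0.109 within the 6 calli, against 0.154 over the candidates, and 71 of them lay under that median. The 100 with the lowest SD within callus had a median SD of 0.325 within somatic embryo, against 0.424 over the candidates, and 73 lay under that median. The SDs ran from 0.025 to 0.593 and from 0.107 to 1.05, so evenness in a single tissue left room for wide spread in the other. These lists shared 6 genes, 6 of 100 in each, where a list of 100 is 2.43% of the candidates. Genes even within a tissue also differed between the tissues, by a median of 0.29 (log2) for the list chosen on embryos and 0.26 for that chosen on calli, where the candidates had 0.42. Of the 100 genes even over both tissues, 44 were on the embryo list and 9 on the callus list. The SD over all 18 libraries includes the values that chose each list, those of the 12 embryos above all. These counts are thus partly built in, and nothing is read from them.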

How the data were processed

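The authors deposited FPKM values for the whole series in a single table of 33991 gene IDs. Per the submitters' processing notes, FastQC 0.11.9, Trimmomatic and STAR 2.7.10b were used. Genome build, annotation and the program behind the FPKM values: not given in the sources used here. Per the labels' protocols, total RNA was made into strand-specific Illumina libraries. The 18 columns named for a labelled sample were read, and the other 195 columns of samples were left aside. Groups and numbers come from the tissue label.

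Values were transformed to log2(FPKM + 1), on which the change of low genes is understated. Genes with at least 1 FPKM in at least 6 libraries (20365) were compared with limma 3.58.1 in R 4.3.3 (trend and robust settings, statmod 1.5.0), with 0.05 as the limit on Benjamini-Hochberg adjusted p. Other values came from Python 3.11.15, NumPy 2.4.6 and pandas 2.3.3. The choice of genes and the limma fit were tested on simulated data with independent libraries. The simulated even genes were set well apart in SD from the rest, so the close border of the choice was not tested. The p-values treat the libraries as independent, which close libraries may not be, and would then be too small.

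The 100 genes and all lists were chosen with earlier results of these data known. Named genes are those at the extremes of SD, level, tissue difference, spread within a tissue, change with scaling and ratio, and at the border of the choice. Lists of named gene families were not run, since IDs carry no names. Alternatives were other scalings, pseudocounts, level limits and measures of spread, a block for the replicate number, and fewer libraries.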

Additional observations from a re-analysis of the deposited data

Results flagged for a closer look

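Of 30 measures examined in the 6 callus libraries, 1 had a library far from the others. Cm01G03871.gene stood at 101.42 FPKM in callus 1, below the other callus libraries by 0.63 of the whole callus range, just past the limit for 6 samples. Chance passes this limit in about 1 of 20 groups. The value lies within the range of the embryos.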

How the results depend on the processing

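How many of the 100 genes were chosen again varied with the level limit, the measure and the libraries used: 53 after median-of-ratios scaling, 49, 44 and 38 with limits of 20, 100 and 5 FPKM on the mean (the 44 by construction), 35 by the median absolute deviation, 44 on somatic embryo alone, 9 on callus alone and 63 without somatic embryo 2 and 11, a setting added after the data were seen. Leaving out 1 library kept 73 (somatic embryo 4) to 96. Where that library had a close partner, the partner stayed in: 90 were kept without somatic embryo 2 alone and 90 without somatic embryo 11 alone. For the 100 genes as chosen, the median SD changed by less than 0.024 under all 26 settings, at 0.155 to 0.161 with 1 library left out. This limit of 0.024 was the SD over libraries of the median absolute deviation of the 100 genes, and is not an error of the median SD. Most settings left out 1 library with the genes held fixed, so a small change is partly built in. The median absolute tissue difference was 0.093 after median-of-ratios scaling, against 0.119, and 0.103 to 0.128 with 1 library left out. The excess of embryo over callus SD was 0.121 without callus 1, 2 and 6, 0.114 without callus 3, 4 and 5, and 0.074 to 0.085 with 1 library left out.

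The 13 members past adjusted p 0.05 in limma were 10 to 17 with 1 library left out, 2 without callus 1, 2 and 6 (Cm07G01343.gene and Cm12G02128.gene, named after their values were seen) and 6 without callus 3, 4 and 5, of which 50% were higher in somatic embryo against 0%. At the same threshold 38.9% to 47.4%, 22.1% and 39.9% of all tested genes passed, against 46.3%. The cause was not tested. When samples 1 to 6 of both tissues were fitted with a replicate block, limma passed 0 members (3 at an unadjusted p under 0.05), against 11 on those samples without the block, where 38.6% and 44.2% of all tested genes passed. There was no sign that equal numbers mark paired samples, since their deviations from the tissue means had correlations of -0.08 to 0.01 over 6 pairs and no embryo library was closest to its own number. Over all genes, 4466 were called at 2-fold or more and 9435 with no fold threshold (51.4% and 39.9% higher in somatic embryo). At 2-fold or more, 2728 were called without callus 1, 2 and 6 and 5191 without callus 3, 4 and 5 (45.5% and 48.6% higher). With the block 4365 were called against 4432 without it, and 4015 to 4594 with 1 library left out. Depth is unknown, so no counting error can be given.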
